A study of Mus musculus with 8 samples.

Results

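Transcripts of 40 genes of DNA replication and mitosis were compared between nephron progenitor cells with and without a working copy of Vhl. The genes were taken by name from a table of 20254 genes. They form a mitotic set of 21 genes and a replication set of 19 genes, and all 40 were measured and passed the filter on low values. The cells came from mouse kidneys at embryonic day 17.5 and were sorted by green fluorescence. Both groups carry Six2EGFPcre, a transgene that makes a fusion of GFP and Cre recombinase under the Six2 promoter, so that deletion is limited to cells with Six2 activity and their descendants. The 4 control libraries have the genotype VHLNP+/-, heterozygous for the deletion, and the 4 mutant libraries have VHLNP-/-. The labels do not say whether a library holds 1 embryo or several. The p-values set the group difference against the spread between libraries of a group, which may thus be partly technical.

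Proliferating cells copy their DNA in S phase and divide it in mitosis. Before S phase the origin recognition complex, Cdc6 and Cdt1 load the Mcm2-7 helicase onto DNA, and Cdc45 and the GINS complex later turn it into the active form that opens the fork. E2F factors switch these genes on, while the mitotic genes come on later through the MuvB complex with B-Myb and FoxM1. Nephron progenitors of the fetal kidney both renew themselves and form nephrons, so that a share of sorted cells is in cycle at any time. In sorted cells measured in bulk, fewer cycling cells and less RNA per cycling cell cannot be told apart.

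Levels are normalised reads, which are the reads of a gene divided by the size factor of the library. Differences are mutant minus control on the scale log2(normalised reads + 1), where changes of weakly expressed genes come out too small. Vhl itself was at 1134, 1379, 1208 and 1180 normalised reads in controls 1 to 4 and at 320.2, 284.7, 331.2 and 335.9 in mutants 1 to 4. The mutants held 26% of the control level (two-sided exact permutation p = 0.0286, the smallest value that 70 relabellings allow). The reads of the 20254 genes summed to between 37252683 and 46515762 in a library. Six2, which marks the sorted cells, lay between 21553 and 28134 in controls and between 21600 and 26992 in mutants, and Cited1, another progenitor gene, between 2521 and 3372 and between 2395 and 3231. Of 8 progenitor markers 3 were called, and they are named here after their values were seen. Meox1 (-0.40, limma adjusted p = 0.00396) and Osr1 (-0.25, adjusted p = 0.0404) were lower in mutants, and Gdnf (0.39, adjusted p = 0.0101) was higher. Meox1 and Gdnf kept their calls without any 1 library, while Osr1 lost it without control 2, 3 or 4 or mutant 1, 2 or 4 (adjusted p up to 0.138). The red cell gene Hba-a1 was at 0 in each control and at most 6 in mutants. Across all genes, limma called 1297 of 15381 tested at an adjusted p under 0.05, which is 8.43%, with 831 higher and 466 lower in mutants. That number was 816 without control 4 and 774 without mutant 4.

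Promoters of the members were searched for 3 sequence elements known from cell cycle genes. RefSeq start sites of the GRCm38.p6 assembly were found for 33 of the 40 genes, in 34 windows, and the 250 bases before each start were searched on both strands. There was no entry for Ccna2, Aurkb, Kif20a, Tpx2, Mcm4, Gins1 and Gins2. The cell cycle genes homology region (CHR), a site of the MuvB complex, was searched as TTTGAA or TTCGAA. It was present in 7 of 17 mitotic windows (41.2%), in 3 of 17 replication windows (17.6%) and in 17.1% of all 32851 mouse windows. The CCAAT box, which binds NF-Y, was present in 15 of 17 mitotic windows (88.2%), 13 of 17 replication windows (76.5%) and 33.8% of all windows. A CHR and a CCAAT box lay together in 7 of 17 mitotic (41.2%) and 3 of 17 replication windows (17.6%), against 6% of all windows. Every member window with a CHR match, in either set, also had a CCAAT box. E2F sites, searched as TTTCCCGC, TTTGGCGC, TTTCGCGC or TTTGCCGC, were present in 5 of 17 replication windows (29.4%), in 1 of 17 mitotic windows (5.9%) and in 1.9% of all windows. The replication genes with such a match were Mcm5, Mcm6, Mcm7, Orc1 and Cdc6, and the mitotic gene was Cdk1. Nusap1, Birc5, E2f1, Tyms and Cdt1, 5 of the 33 genes, had no match to any of the 3 motifs in their window. The E2f1 window, from 154569377 to 154569676, lies inside the gene as annotated by GENCODE (154559407 to 154569892, minus strand). The windows of Cdc6 and Mcm7 also lie inside their genes. For these genes the bases before the GENCODE start were not searched. A match is a run of letters and not a measured binding site.

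**Figure D1:**
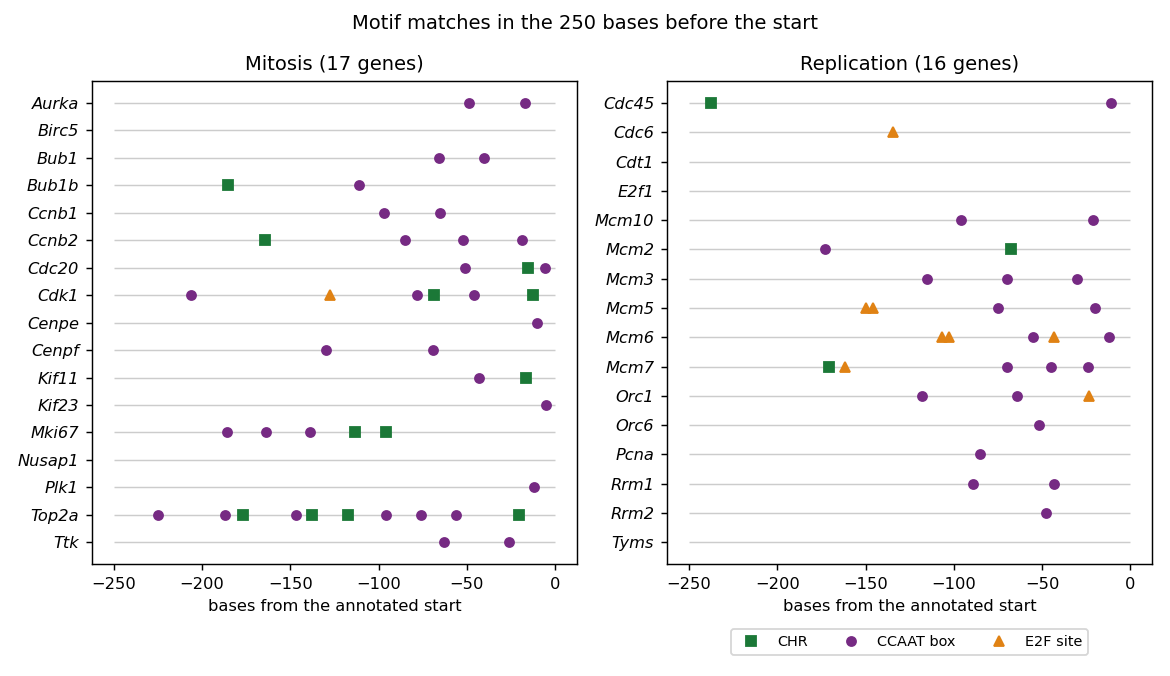
Positions of CHR (squares), CCAAT box (circles) and E2F site (triangles) matches in the 250 bases before the annotated start of 17 mitotic and 16 replication genes, with the distance from the start in bases on the x axis. Matches of both Mcm7 windows share a row, 15 of 17 mitotic windows hold a CCAAT box, and E2F matches lie in 5 replication genes and in Cdk1.

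The 150 bases before the start are shown for 8 members. Ccnb2, Cdc20 and Top2a are mitotic genes whose windows hold both a CHR and a CCAAT box, and Mcm6 and Orc1 show E2F matches. Kif23, Cenpf and Rrm2 are the genes whose groups did not overlap, as in 15.3% of all tested genes. Each runs 5′ to 3′ on the strand of the gene, and capitals mark matches to any of the 3 motifs in either orientation.
Ccnb2, chr9:70421555-70421704, strand minus: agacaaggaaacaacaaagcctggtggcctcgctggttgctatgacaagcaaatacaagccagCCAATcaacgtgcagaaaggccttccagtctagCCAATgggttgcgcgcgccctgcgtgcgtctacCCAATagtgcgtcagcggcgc
Cdc20, chr4:118437344-118437493, strand minus: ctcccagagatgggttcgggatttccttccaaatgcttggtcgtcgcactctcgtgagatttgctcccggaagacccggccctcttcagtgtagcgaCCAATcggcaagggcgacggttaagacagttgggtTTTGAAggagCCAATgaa
Top2a, chr11:99024190-99024339, strand minus: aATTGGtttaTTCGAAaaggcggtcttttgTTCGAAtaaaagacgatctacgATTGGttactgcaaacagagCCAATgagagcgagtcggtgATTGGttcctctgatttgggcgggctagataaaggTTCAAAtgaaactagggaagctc
Kif23, chr9:61946800-61946949, strand minus: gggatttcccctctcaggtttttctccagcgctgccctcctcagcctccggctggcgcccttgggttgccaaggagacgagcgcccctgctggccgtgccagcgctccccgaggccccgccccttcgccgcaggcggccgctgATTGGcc
Cenpf, chr1:189688087-189688236, strand minus: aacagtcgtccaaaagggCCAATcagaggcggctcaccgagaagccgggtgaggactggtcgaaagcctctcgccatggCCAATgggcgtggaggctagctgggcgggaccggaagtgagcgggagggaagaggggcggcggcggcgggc
Mcm6, chr1:128359706-128359855, strand minus: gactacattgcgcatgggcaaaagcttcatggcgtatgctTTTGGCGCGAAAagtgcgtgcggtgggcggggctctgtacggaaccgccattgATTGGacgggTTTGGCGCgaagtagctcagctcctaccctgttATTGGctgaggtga
Orc1, chr4:108579304-108579453, strand plus: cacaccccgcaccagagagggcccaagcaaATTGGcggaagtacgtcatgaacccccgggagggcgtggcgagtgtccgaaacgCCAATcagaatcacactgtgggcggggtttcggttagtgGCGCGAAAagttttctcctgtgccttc
Rrm2, chr12:24708104-24708253, strand plus: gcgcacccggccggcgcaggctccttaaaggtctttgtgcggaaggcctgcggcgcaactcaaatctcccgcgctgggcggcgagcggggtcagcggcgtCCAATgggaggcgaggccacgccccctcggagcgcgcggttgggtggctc
The stretch of Ccnb2 holds 3 CCAAT boxes, while its CHR match lies further upstream, from 162 to 167 bases before the start. That of Cdc20 holds 1 CHR and 2 CCAAT boxes near the start. Top2a, which encodes the topoisomerase that untangles sister chromatids, has 3 CHR matches and 4 CCAAT boxes in its stretch. Mcm6 has 3 E2F matches, of which 2 overlap as TTTGGCGCGAAA, and Orc1 has 1 E2F match. Kif23 and Rrm2 have 1 CCAAT box each and Cenpf has 2, with no CHR or E2F match in these bases.

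The level per length differed widely among members. Levels were divided by the length of the main annotated transcript, in normalised reads per kb. Pcna, the sliding clamp of DNA polymerases, was highest in controls at 8340 ± 830 normalised reads per kb (SD, n = 4), followed by Mcm6 at 5780 ± 465 and Top2a at 4790 ± 456 (SD, n = 4 each). Orc1, the largest subunit of the origin recognition complex, was lowest at 164 ± 15.2 (SD, n = 4). Among mitotic genes the lowest was Cenpf at 512 ± 92.3 (SD, n = 4). The median over the genes was 1890 for the replication set and 1460 for the mitotic set. All Mcm2-7 genes had more than the median of the replication set, from 2690 ± 66.7 for Mcm4 to 5780 ± 465 for Mcm6 (SD, n = 4 each).

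None of the 40 genes passed the test between mutants and controls. By limma 0 of 21 mitotic genes and 0 of 19 replication genes were called at an adjusted p under 0.05, against 8.43% of all tested genes. The background by direction was 5.4% higher and 3.03% lower. An unadjusted p under 0.05 was reached by 2 mitotic genes, both higher in mutants, and by 3 replication genes, all lower. Of all tested genes 23.3% reached it, 12% higher and 11.2% lower. In the authors' deposited table, Kif23 is among the 7.12% of genes called higher and Rrm2 among the 5.35% called lower (12.5% in either direction). The limma-voom fit of whole reads called 0 of 40. The 95% intervals of the differences stayed within a fold of 1.5 in either direction for 39 of the 40 genes, the exception being Cenpf. They ran from -0.44 at the lowest (Plk1) to 0.66 at the highest (Cenpf) on the log2 scale.

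The medians of both sets were close to 0. The median difference was -0.09 (log2) for the replication set, with 15 of 19 genes below 0 and a range of -0.23 to 0.11. For the mitotic set it was 0.00, with 9 of 21 genes below 0 and a range of -0.18 to 0.35. The median of all 15381 tested genes was -0.01, with 7916 of them below 0. With TMM scaling 16 of 19 replication and 12 of 21 mitotic genes lay below 0. With 1 library left out, the replication median lay between -0.15 (without control 1) and -0.06 (without mutant 3), and the mitotic median between -0.05 (without control 2) and 0.06 (without control 3). Without control 2 the medians were -0.07 for replication and -0.05 for mitosis, with 14 of 19 and 14 of 21 genes below 0. The difference between the sets was not tested. Members share libraries and move together, so they are not independent observations of the genotype.

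**Figure D2:**
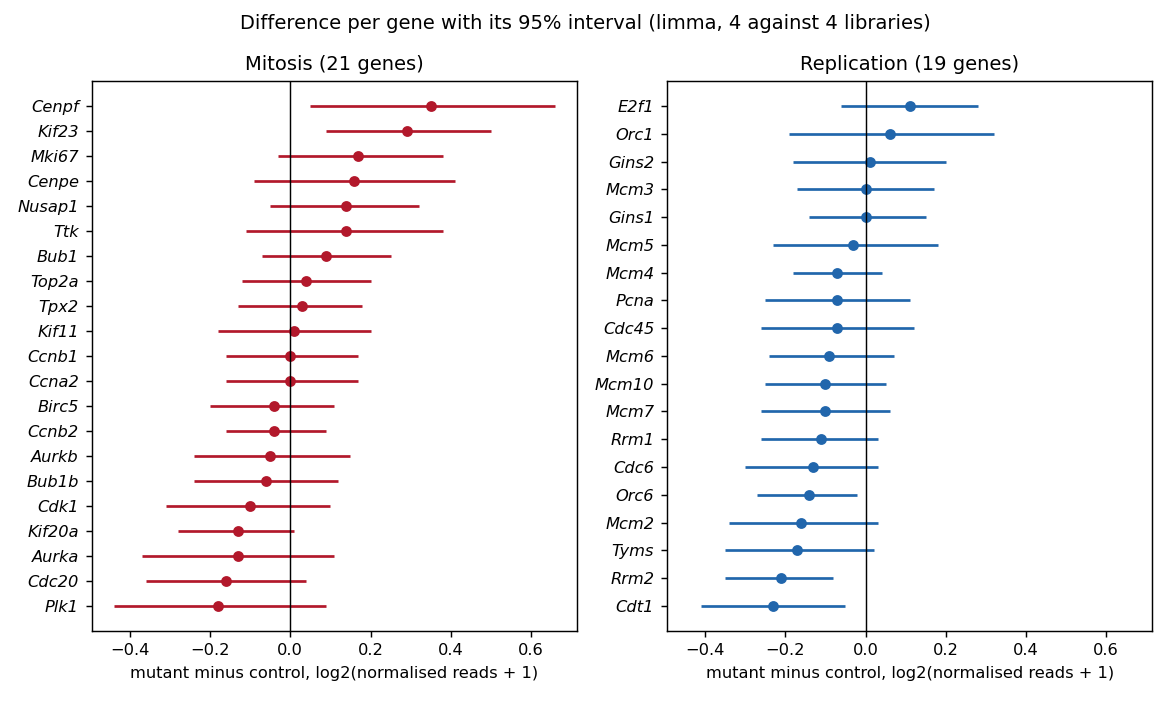
Mutant minus control difference of each gene on the log2(normalised reads + 1) scale (x axis, points) with its 95% interval from limma (lines), for 21 mitotic and 19 replication genes. The intervals of Cenpf and Kif23 lie above 0, those of Rrm2, Cdt1 and Orc6 lie below 0, and the others include 0.

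The genes that load the helicase were mostly a little lower in mutants, without a call. Cdt1, the loading factor that is destroyed once S phase starts, lies on chromosome 8 from 122568015 to 122573554 (mm10). It was at 2886, 3726, 3554 and 3463 normalised reads in controls 1 to 4 and at 2951, 2934, 2648 and 3037 in mutants 1 to 4. Controls 2, 3 and 4 stood above all mutants, while control 1 lay among them. The difference was -0.23 (log2, SE 0.081, interval -0.41 to -0.05, limma adjusted p = 0.11). Without control 1 it was -0.31 and was called (adjusted p = 0.0117). Orc6, the smallest subunit of the origin complex, lies on chromosome 8 from 85299632 to 85308278. It was at 2255, 2485, 2527 and 2462 in controls and at 2213, 2192, 2085 and 2313 in mutants. Here too control 1 was the lowest control, and mutant 4 was the 1 mutant above it (difference -0.14, interval -0.27 to -0.02, limma adjusted p = 0.158). Cdc6, the ATPase that works with Cdt1, was at 1706, 1976, 2198 and 1944 in controls and at 1724, 1821, 1688 and 1873 in mutants. The groups overlapped (difference -0.13, interval -0.30 to 0.03, limma adjusted p = 0.326). Orc1 was at 506.6, 474.3, 548.9 and 441.9 in controls and at 541.8, 467.4, 438.9 and 623.6 in mutants, with the highest and the lowest value both among mutants (difference 0.06, interval -0.19 to 0.32).

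The genes of the Mcm2-7 helicase had 6 differences between -0.16 and 0.00, with 0 calls. Mcm2 was at 9801, 12078, 12235 and 11571 normalised reads in controls 1 to 4 and at 10150, 10669, 9125 and 10996 in mutants 1 to 4. Control 1 again lay among the mutants, and the difference of -0.16 had an interval of -0.34 to 0.03 (limma adjusted p = 0.288). Mcm3 was at 10975 ± 1038 normalised reads in controls against 10940 ± 742 in mutants (SD over 4 libraries), with a difference of 0.00 and an interval of -0.17 to 0.17. Mcm4 had the narrowest interval of the helicase genes, from -0.18 to 0.04, at 9660 ± 239 and 9220 ± 295 (SD, n = 4 each). Mcm5, Mcm6 and Mcm7 had differences of -0.03, -0.09 and -0.10. Annotated exons of Mcm7 overlap Ap4m1 and Cops6 on the other strand and the microRNA genes Mir25 and Mir93 on its own. The other member with an overlap on its own strand is Top2a, with Gm23451.

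The 5 genes that fire origins and run the fork had differences between -0.10 and 0.01, with intervals that included 0. Gins1, a GINS subunit, was at 1007 ± 67.8 and 1008 ± 23.1 normalised reads (SD, n = 4 each), with an interval of -0.14 to 0.15. Gins2 was at 1485 ± 162 and 1494 ± 109, and Cdc45 at 1979 ± 213 and 1882 ± 149 (SD, n = 4 each). Mcm10, which helps to activate the helicase, was at 2240 ± 196 and 2081 ± 72.2 (SD, n = 4 each, difference -0.10, interval -0.25 to 0.05). Pcna was at 10984, 13629, 12376 and 13628 in controls and at 11984, 11469, 11201 and 13356 in mutants. The lowest value was in control 1 and the groups overlapped (difference -0.07, interval -0.25 to 0.11). E2f1, the transcription factor of the set, did not pass the test. It was at 1611, 2057, 2033 and 2014 in controls and at 2000, 2139, 2030 and 2122 in mutants, so that control 1 stood below the other 7 libraries. The difference was 0.11 with an interval of -0.06 to 0.28 (limma adjusted p = 0.442), and 0.03 without control 1.

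Enzymes that supply deoxynucleotides held the replication gene nearest to a call. Rrm2, the small subunit of ribonucleotide reductase, lies on chromosome 12 from 24708241 to 24714146 (mm10). It was at 5910, 6542, 6558 and 6827 normalised reads in controls 1 to 4 and at 5829, 5509, 5231 and 5710 in mutants 1 to 4. Each mutant lay below each control, although control 1 and mutant 1 were close. Such a separation with mutants lower occurred in 6.72% of tested genes. The fold was 0.86 (interval 0.79 to 0.95), and the difference was -0.21 (log2, SE 0.061, limma adjusted p = 0.0544). The authors' deposited table gives -0.21 with an adjusted p of 0.00788. Rrm2 was called without control 1 (adjusted p = 0.0182) and not when any other single library was left out (adjusted p up to 0.163). Rrm1, the large subunit, was at 15208 ± 1126 and 14063 ± 650 (SD, n = 4 each), with a difference of -0.11 and an interval of -0.26 to 0.03. Tyms, the enzyme that makes thymidylate, was at 3734, 4550, 4770 and 4395 in controls and at 3758, 4145, 3508 and 4103 in mutants. Only control 1 fell within the range of the mutants (difference -0.17, interval -0.35 to 0.02, limma adjusted p = 0.257).

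**Figure D3:**
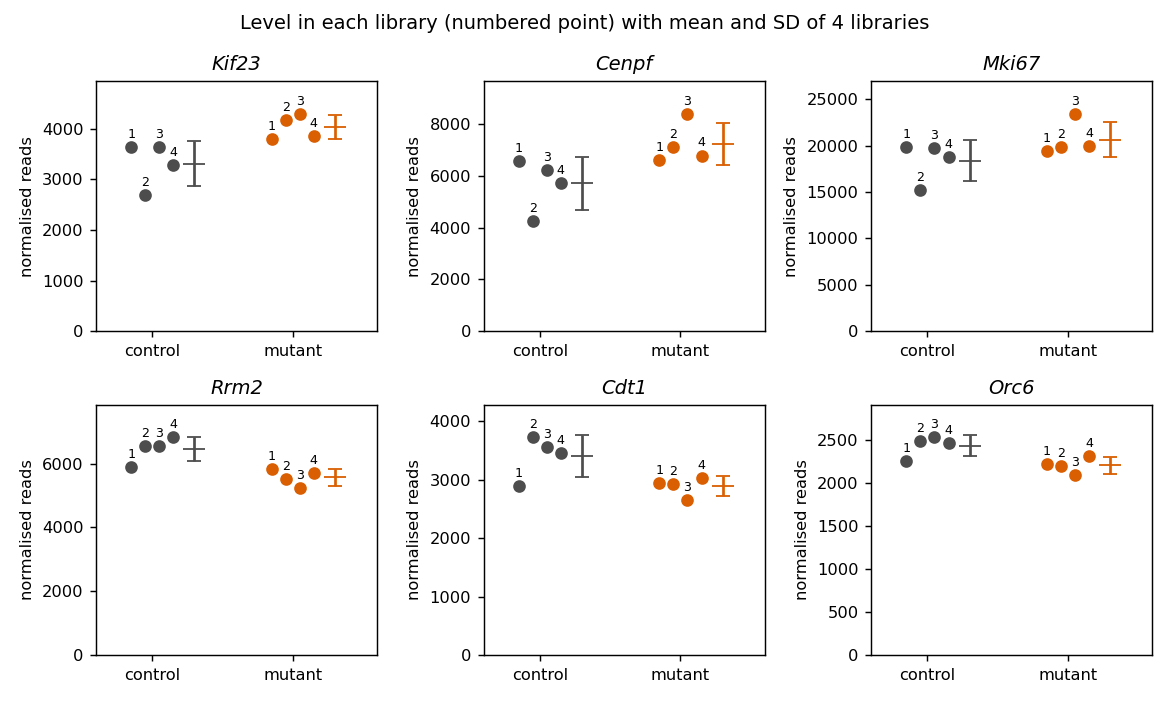
Normalised reads (y axis, from 0) of 6 members in each library, with points numbered by replicate and the mean ± SD of 4 libraries beside them, controls in grey and mutants in orange. Mutants lie above all controls for Kif23 and Cenpf and below all controls for Rrm2, and control 1 lies at or near the mutants for Cdt1 and Orc6.

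The cyclins were nearly equal in both groups, while Cdk1 and Cdc20 were a little lower in mutants, with intervals that included 0. Ccna2, cyclin A of S phase and early mitosis, was at 5998 ± 607 and 5984 ± 342 normalised reads (SD, n = 4 each), with an interval of -0.16 to 0.17. Ccnb1, cyclin B of the mitotic kinase, was at 5667, 5674, 6818 and 6004 in controls and at 6122, 6657, 5574 and 5850 in mutants. Its difference was 0.00 with the same interval of -0.16 to 0.17. Control 3 was the highest control and mutant 2 the highest mutant. Ccnb2 was at 3045 ± 153 and 2968 ± 122 (SD, n = 4 each). Cdk1, the kinase that starts mitosis, was at 4985, 5753, 6593 and 6018 in controls and at 5838, 5877, 4704 and 5285 in mutants (difference -0.10, interval -0.31 to 0.10). Cdc20, which activates the ligase that ends mitosis, was at 4737, 4709, 5819 and 5172 in controls and at 4835, 5143, 3938 and 4411 in mutants. Control 3 stood above all other libraries and mutant 3 below them (difference -0.16, interval -0.36 to 0.04, limma adjusted p = 0.337).

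The 6 mitotic kinases had differences between -0.18 and 0.14. Plk1, which acts in spindle assembly and cytokinesis, was at 3098, 2846, 4022 and 3333 normalised reads in controls 1 to 4 and at 3000, 3465, 2531 and 2760 in mutants 1 to 4. Control 3 was the highest and mutant 3 the lowest library (difference -0.18, interval -0.44 to 0.09, limma adjusted p = 0.419). Aurka, a kinase of the spindle poles, followed the same order at the ends, with 2537 in control 3 and 1706 in mutant 3 (difference -0.13, interval -0.37 to 0.11). Aurkb, the kinase of the chromosomal passenger complex, was at 2840 ± 371 and 2741 ± 205, and its partner Birc5 (survivin) at 3062 ± 282 and 2964 ± 169 (SD, n = 4 each). Of the spindle checkpoint kinases, Bub1 was at 3423 ± 334 and 3632 ± 92.3, and Ttk at 1499 ± 240 and 1636 ± 134 (SD, n = 4 each). Bub1b, their checkpoint partner, was at 7124 ± 839 and 6819 ± 398 (SD, n = 4 each). The intervals of all these genes included 0.

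A motor and a kinetochore gene held the largest differences of the 40. Kif23, a kinesin of the central spindle that acts in cytokinesis, lies on chromosome 9 from 61915905 to 61946774 (mm10). In controls 1 to 4 it was at 3630, 2680, 3645 and 3286 normalised reads, and in mutants 1 to 4 at 3793, 4169, 4294 and 3853. Each mutant lay above each control, and control 2 was far below the other controls. The fold was 1.22 (interval 1.06 to 1.41), and the difference was 0.29 (log2, SE 0.094, limma adjusted p = 0.0847). The authors' deposited table gives 0.28 with an adjusted p of 0.0378. Cenpf, a large kinetochore protein, lies on chromosome 1 from 189640606 to 189688086. It was at 6586, 4254, 6235 and 5739 in controls and at 6623, 7095, 8398 and 6783 in mutants. Mutants were above all controls, by little for control 1 against mutant 1, and separations with mutants higher occurred in 8.54% of tested genes. The difference was 0.35 (interval 0.05 to 0.66, limma adjusted p = 0.154). Without control 2 the differences were 0.19 for Kif23 and 0.22 for Cenpf, with adjusted p of 0.161 and 0.217.

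Other members of these groups were not separated. Cenpe, the kinetochore motor, was at 5120, 3575, 4309 and 4200 normalised reads in controls and at 4446, 4297, 5635 and 4817 in mutants (difference 0.16, interval -0.09 to 0.41). Control 2 was lowest and mutant 3 highest. Kif11, the motor that pushes spindle poles apart, was at 6386 ± 789 and 6380 ± 319 (SD, n = 4 each, interval -0.18 to 0.20). Kif20a, a kinesin of cytokinesis, was at 3875 ± 302 and 3528 ± 178 (SD, n = 4 each, difference -0.13, interval -0.28 to 0.01). Nusap1 and Tpx2, which organise spindle microtubules, had differences of 0.14 (interval -0.05 to 0.32) and 0.03 (interval -0.13 to 0.18). Mki67, which coats mitotic chromosomes and is the usual marker of cycling cells, was at 19857, 15196, 19731 and 18799 in controls and at 19410, 19812, 23452 and 19976 in mutants. Apart from control 2 and mutant 3 the libraries lay between 18799 and 19976 (difference 0.17, interval -0.03 to 0.38, limma adjusted p = 0.302). Top2a was at 25021 ± 2379 and 25603 ± 809 (SD, n = 4 each, difference 0.04, interval -0.12 to 0.20).

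Within a group, some libraries lay in the same direction for most members of a set. Deviations were taken from the mean of a gene over all 8 libraries. The replication set had a median deviation of -0.13, 0.10, 0.13 and 0.08 (log2) in controls 1 to 4 and of -0.06, -0.01, -0.14 and 0.04 in mutants 1 to 4. Control 1 was the lowest control for 18 of 19 replication genes, and mutant 3 was the lowest mutant for 16 of 19. Mutant 4 was the highest mutant for 14 of 19. The mitotic set had medians of -0.02, -0.15, 0.16 and 0.02 in controls and 0.00, 0.08, -0.01 and -0.04 in mutants. Control 3 was the highest control for 17 of 21 mitotic genes and control 2 the lowest for 15 of 21. Mutant 2 was the highest mutant for 12 of 21, while mutant 3 was the highest for 9 and the lowest for 9. The spread within a group exceeded the difference between the groups for both sets. Members varied more among controls: the coefficient of variation was larger in controls than in mutants for 19 of 21 mitotic and 15 of 19 replication genes, with medians of 11.8% against 6% and 9.5% against 5.8%. This difference in spread was not tested, and the share of all tested genes that varied more among controls is not given here.

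**Figure D4:**
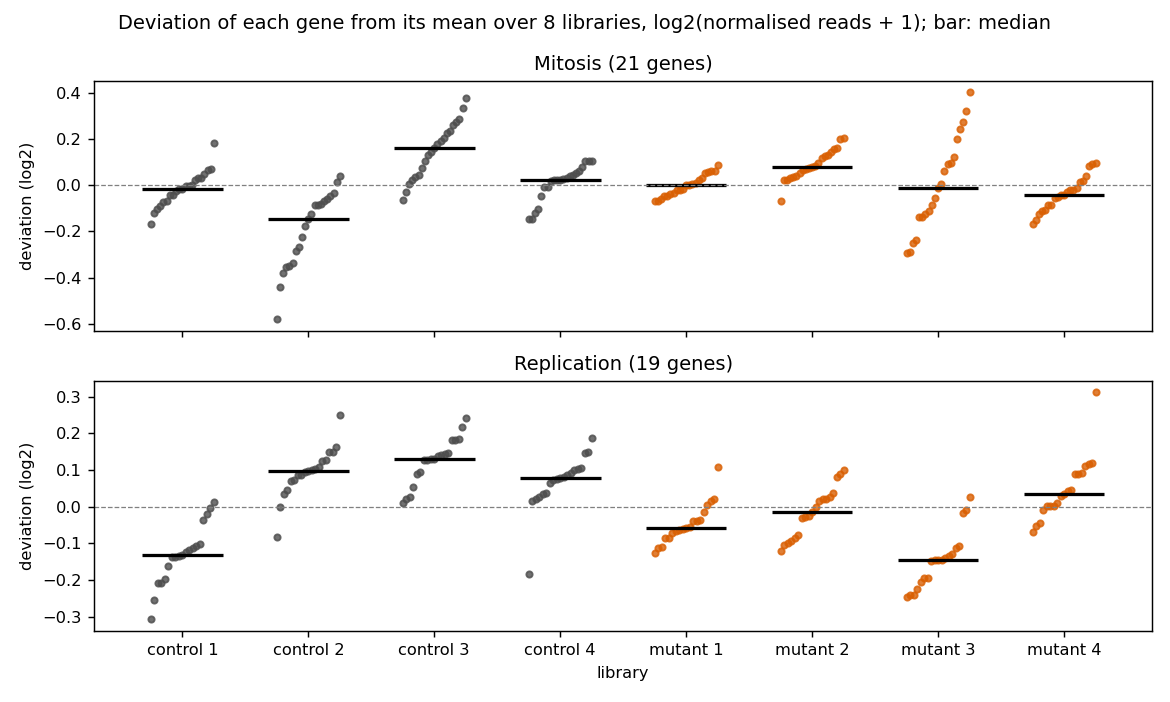
Deviation of each gene from its mean over the 8 libraries on the log2(normalised reads + 1) scale (y axis), by library (x axis), for 21 mitotic (top) and 19 replication genes (bottom), with controls in grey, mutants in orange and the median as a bar. Controls 1 and 2 part for the replication set (medians -0.13 and 0.10), and mutant 3 is spread widely for the mitotic set.

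Control 3 and mutant 2, which were highest for most mitotic genes in their groups, had the lowest sums of tubule and stroma markers in them. The same held for early nephron (28281 and 26898), ureteric bud (1793 and 2250), endothelium (911 and 1391) and leukocyte markers (433 and 473). Erythroid markers differed, with 165 in control 3, the highest control, and 110 in mutant 2. The summed level of 6 tubule markers was 2080 in control 3 against 5969 to 7418 in the other controls, and 3708 in mutant 2 against 3963 to 8793 in the other mutants. The 6 stroma markers summed to 23357 in control 3 and 19762 in mutant 2, the lowest of their groups, and to 50873 in control 1, the highest of all. Summed podocyte markers ranged from 1710 to 7871 in controls and from 1099 to 2586 in mutants. Here control 3 was again the lowest control, but the lowest mutant was mutant 4, with 1285 in mutant 2. All 6 podocyte genes had differences below 0, as had 7916 of all 15381 tested genes. Of the 6 podocyte genes 1 was called lower, against 3.03% of all tested genes. Of the 6 endothelium genes 1 was called higher, against 5.4% of all tested genes. The early nephron, tubule, ureteric bud, stroma, leukocyte and erythroid lists held 0 calls. The sums of the 8 progenitor markers ranged from 93106 to 104546 in controls and from 92958 to 101552 in mutants. Control 3 and mutant 2 had the highest of these sums in their groups. These sums hold the called Meox1, Osr1 and Gdnf. Without control 3 and mutant 2, the median difference was 0.02 for the mitotic and -0.06 for the replication set, and the count of called members was 0, as with all libraries. The part of other cells in the values of the members was not tested.

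Libraries also differed by transcript length. In mutant 3, tested genes of 8 kb or more had a median deviation of 0.125 and those under 1.5 kb of -0.077, while in control 2 these were -0.055 and 0.068. Control 1 resembled mutant 3 (0.052 and -0.061), and control 4 resembled control 2 (-0.065 and 0.045). The 11 mitotic genes with transcripts of at least 3 kb had a median deviation of -0.27 in control 2 and 0.09 in mutant 3, and the 10 shorter ones of -0.09 and -0.10. Such a gap was not seen in control 1, with 0.00 for the longer and -0.03 for the shorter genes, or in control 4, with 0.02 and 0.03. Between the groups, 8 of the 11 longer and 4 of the 10 shorter genes lay above 0, with medians of 0.04 and -0.04. The transcripts of Cenpf, Mki67 and Cenpe are 11.13, 10.06 and 7.91 kb long, and that of Kif23 is 3.4 kb. With the length trend of each library removed, a setting chosen after seeing the data, the difference was 0.32 for Cenpf (adjusted p = 0.0974), 0.30 for Kif23 (adjusted p = 0.0631) and -0.20 for Rrm2 (adjusted p = 0.0444, a call). What sets the length trend of a library was not tested.

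**Figure D5:**
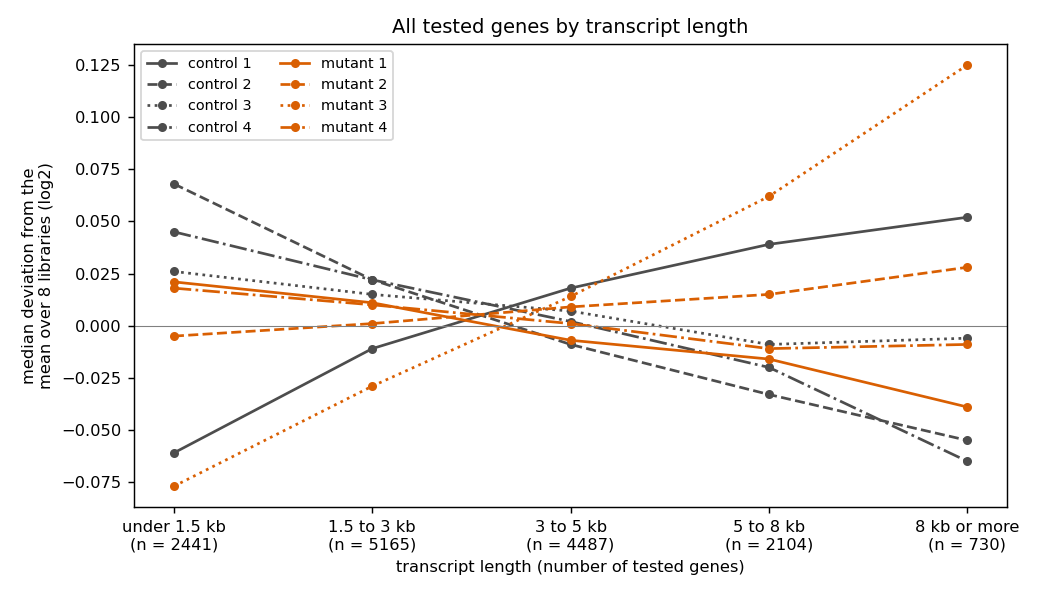
Median deviation of all tested genes from their mean over the 8 libraries (y axis, log2) in 5 classes of transcript length (x axis, with the number of genes), 1 line per library. Mutant 3 rises from -0.077 for transcripts under 1.5 kb to 0.125 for those of 8 kb or more, and control 2 runs the opposite way from 0.068 to -0.055.

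Other genes of the same processes gave a single call. Of 41 other replication genes, 0 were called higher, 1 lower and 40 were not called, with a median of -0.07 and 32 below 0. Of all 15381 tested genes, 7916 lay below 0. Calls over all tested genes were 5.4% higher and 3.03% lower. Without adjustment, 9 of the 41 reached a p under 0.05, all of them lower, beside 11.2% lower and 12% higher among all tested genes. The called gene was Pole2, a subunit of the leading-strand DNA polymerase, which lies on chromosome 12 from 69201773 to 69228195. It was at 1043, 1078, 1114 and 1038 normalised reads in controls and at 869.5, 821.6, 848.6 and 943.5 in mutants. Each mutant lay below each control, as in 6.72% of tested genes. Its fold was 0.81 (interval 0.74 to 0.90, difference -0.30, limma adjusted p = 0.0143). It kept its call without any 1 library (adjusted p up to 0.0467) and lost it without both control 3 and mutant 2 (0.0942), with the deposited values as they are (0.179) and with a replicate block (0.0758). Pole2 also overlaps Gm49384 on its own strand. Of 40 other mitotic genes, 0 were called in either direction, with a median of 0.02, and 1 reached an unadjusted p under 0.05, on the higher side. In the first list the authors' deposited table calls 2 genes lower and 0 higher, and in the second 1 gene higher and 0 lower.

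Of 18 transcription factors and repressors of the cell cycle, 1 was called higher, 0 lower and 17 were not called, with a median of -0.05. Calls over all tested genes were 5.4% higher and 3.03% lower. An unadjusted p under 0.05 was reached by 1 factor on the higher side and 2 on the lower, beside 12% and 11.2% of all tested genes. The called gene was Rb1, the retinoblastoma protein that restrains E2F, on chromosome 14 from 73183673 to 73325822. It was at 1186, 1062, 1015 and 1193 normalised reads in controls and at 1328, 1269, 1508 and 1326 in mutants. Each mutant lay above each control, as in 8.54% of tested genes. Its fold was 1.22 (interval 1.09 to 1.37, difference 0.29, limma adjusted p = 0.0411). The call was lost without control 2, control 3, control 4, mutant 1, mutant 3 or mutant 4 (adjusted p up to 0.116), with no filter on low values (0.0529), with the deposited values (0.155), with a replicate block (0.115), and without both control 3 and mutant 2 (0.1). Lpar6 and Rcbtb2 overlap exons of Rb1 on the other strand, and no source used here says whether the counter kept strands apart. An antisense gene also overlaps an exon in 10 of the 40 members: Ccna2, Cdc20, Plk1, Kif20a, Nusap1, Orc1, Orc6, Mcm7, Cdc45 and Gins2. Ccnb1, Ccnb2, Pcna and Tyms have annotated pseudogenes that could share their reads.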

How the data were processed

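The labels' protocols describe stranded libraries of polyadenylated RNA, 4 per group. STAR 2.5.3a, DESeq2 1.18.1 and the mm10 build appear in the submitters' processing notes of the authors. No source used here gives the read counter, its annotation or its strand setting. The deposited values are a signal per gene and library: read counts divided by size factors, divided a second time by the same 8 factors recycled down the genes, and rounded. This was read from the values, with column names per the file headers. Both divisions were undone, and whole reads rebuilt the deposited mean within a relative tolerance of 1e-09 for 20254 of 20254 genes. With 1 division undone, 0 of 11635 genes with 100 or more in all libraries matched. The authors' deposited log2 fold changes and p-values (DESeq2, per the file headers) served as an alternative, and their deposited score was not used.

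Reads were divided once by the size factors. A gene entered the test where 4 or more libraries had 10 or more normalised reads. Values were fitted as log2(value + 1) with limma 3.58.1 in R 4.3.3 (trend and robust moderation, all 8 libraries, genotype as the only term). Two-sided p-values were adjusted over all tested genes after Benjamini and Hochberg, and intervals are 95%. The fit was tested on simulated counts with the same dispersion for each gene and no shifts shared by genes of a library. It therefore does not show how the fit behaves with the library shifts described above. The deposited unit was treated as a signal, so edgeR and DESeq2 were not fitted to the rebuilt reads. Their place was taken by limma-voom on those reads. Positions and transcript lengths come from GENCODE M21 on the mm10 build, and 96.7% of genes had a length. The named genes are all 40 members, Vhl, and up to 4 called genes of each of 3 pathway lists. The members and lists were chosen with earlier results of these data known. Each member had 438.9 normalised reads or more in each library, and the standard errors hold both counting error and the spread between libraries. Pearson correlations across genes were 0.982 to 0.993 within a group and 0.977 to 0.988 between groups. Settings tried were another pseudocount, no filter, TMM scaling, the deposited values unchanged, a replicate block, library quality weights, removal of the length trend, leaving out each library, and leaving out control 3 with mutant 2.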

Additional observations from a re-analysis of the deposited data

Results flagged for a closer look

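Of 86 groups of 4 libraries examined, 6 had 1 library far from the other 3 on the log2 scale, and chance gives such a gap in about 1 of 20 groups. Bub1 was at 2923 normalised reads in control 2, against 3563 to 3605 in the other controls. Kif11 was at 5219 in control 2, against 6654 to 6961. Gins2 was at 1243 in control 1, against 1542 to 1577, and E2f1 was at 1611 in control 1, against 2014 to 2057. Among mutants, Mki67 was at 23452 in mutant 3, against 19410 to 19976. Ccnb2 was at 2787 in mutant 4, against 3010 to 3050.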

How the results depend on the processing

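No alternative turned the direction of a called value. Of 720 member values under 18 alternatives, 712 stayed without a call and 8 passed the threshold. These 8 belong to Kif23, Cdt1 and Rrm2. Among the 712, 46 changed sign, in 13 genes whose difference in the full fit was at most 0.06 in size. The number of called mitotic genes was 1 with library quality weights and 1 in the authors' deposited table, instead of 0. For replication genes it was 2 with quality weights, 1 with the length trend removed, 1 in the authors' deposited table, and between 0 and 2 with 1 library left out, instead of 0. Over all genes, 1297 calls (831 higher, 466 lower) became 698 (538 and 160) with the deposited values as they are, 2996 (1622 and 1374) with quality weights, 764 (541 and 223) without control 3 and mutant 2, and 774 to 1565 with 1 library left out. Other replication genes gave 1 call, but 0 with the deposited values, 0 without control 3 and mutant 2, 3 with quality weights, 2 in the authors' deposited table and 1 to 4 with 1 library left out. Other mitotic genes gave 0, but 1 with quality weights, 1 without control 3 and mutant 2, 1 in the authors' deposited table and 0 to 1 with 1 library left out. Transcription factors gave 1, but 0 with no filter, 0 with the deposited values, 0 without control 3 and mutant 2, 2 with TMM scaling, limma-voom, quality weights, the length trend removed or the authors' deposited table, and 0 to 1 with 1 library left out. The causes were not tested. Vhl kept its call in each setting, between -1.98 and -1.88.

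The labels give no link between same-numbered libraries beyond the number. The correlations of their deviations from the group means across genes were 0.213, -0.143, -0.144 and 0.063. Each control correlated best with a mutant of another number. Control 3 was highest with mutant 2 (0.57) and control 1 with mutant 3 (0.36). Controls 4 and 2 were highest with mutant 1 (0.255 and 0.231). With the replicate number as a block, 766 genes were called (550 higher, 216 lower), 0 mitotic and 0 replication members, 0 other replication genes and 0 transcription factors. The planned edgeR and DESeq2 fits were not run on the rebuilt whole reads, since the deposited unit was treated as a signal. Depth was lowest for Orc1, with 438.9 normalised reads or more in each library.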
